A study of Mus musculus with 4 samples.

Results

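Dense clusters of ATF4 pull-down peaks in mouse heart ventricle, joined in the way super-enhancers are, numbered 689 chains with 5579 peaks. A peak was eligible when it lay on chromosomes 1 to 19 in the series-wide peak list and overlapped a peak of both replicate lists. Eligible peaks separated by gaps of at most 12500 bp were joined, and a chain was kept when it held at least 6 peaks. Of 41639 series-wide peaks, 40722 lay on these chromosomes and 39907 were eligible, so the chains held 14.0% of eligible peaks and 13.4% of the whole list. The chains were chosen by the measured peak positions and the number of peaks within that gap, and peak counts, spacing and span are therefore given as descriptions with no test.

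ATF4 is a basic leucine zipper transcription factor of the integrated stress response, in which stress kinases slow general translation while translation of the Atf4 message rises. With dimer partners it binds composite C/EBP-ATF elements, and its known targets include genes of amino acid transport, amino acid synthesis and redox balance. Super-enhancers are long stretches of joined enhancers, usually ranked by acetylated histone H3 or Mediator signal, and many lie at genes that define a cell type. Neither mark was measured here, so a dense chain is a description of peak positions only.

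The mice were 4 weeks old. Crosslinked and sheared ventricle chromatin was bound to streptavidin beads in 2 ATF4 pull-down samples, while 2 input samples had no antibody listed and are not analysed here. The labels give no genotype or strain and no driver of a tag, and the antibody entry of the pull-downs reads AAV without explanation. Whether the ATF4 was the heart's own, and whether the replicates were separate animals, cannot be told from them, so every SD (n = 2) covers only the spread between these samples. The study's title names cardiomyocytes, yet the tissue is whole ventricle: a peak cannot be assigned to a cell type, and the number of cells with a peak and the binding per cell cannot be told apart. The lists held 78746 peaks in replicate 1 and 88812 in replicate 2. Peak strength is given as fold over a constant background, not over input, and read depth is unknown. With 2 pull-down samples and no control values, no test over samples was possible.

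Several chains contain microRNA genes known from heart and muscle, and the mature sequences below show which of them share a seed. They come from RefSeq on GRCm38.p6, the assembly of mm10, run 5′ to 3′, and have the seed (bases 2 to 8) in capitals.

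miR-208a-3p, chr14:54949072-54949093, minus strand: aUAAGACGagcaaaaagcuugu
miR-208b-3p, chr14:54975710-54975731, minus strand: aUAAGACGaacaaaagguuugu
miR-195a-5p, chr11:70235062-70235082, plus strand: uAGCAGCAcagaaauauuggc
miR-497a-5p, chr11:70234730-70234751, plus strand: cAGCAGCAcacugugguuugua
let-7b-5p, chr15:85707325-85707346, plus strand: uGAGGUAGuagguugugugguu
let-7c-5p, chr15:85706616-85706637, plus strand: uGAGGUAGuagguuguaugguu

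The members of each pair have the same seed and lie in the same chain. The genes of miR-208a and miR-208b sit inside the myosin heavy chain genes Myh6 and Myh7, and both microRNAs are known regulators of myosin isoform choice in the heart. Those of miR-195a and miR-497a, which belong to the miR-15 family, lie in a chain of 6 peaks beside Bcl6b and Alox12. Both let-7 genes lie in the chain of 7 peaks at Ppara, a nuclear receptor of fatty acid oxidation. None of the microRNA genes shown was itself under a member peak. The nearest member peak was 2.30 kb from miR-195a-5p and 2.63 kb from miR-497a-5p. For let-7b-5p it was 1.90 kb away and for let-7c-5p 2.61 kb.

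Promoter windows under member peaks carry the other sequences shown, because they hold the letters of known ATF elements. Each is the 250 bases before a gene's start in RefSeq on GRCm38.p6, 5′ to 3′ on the gene's strand. Capitals mark TGATGNAA on either strand in Vldlr and Fabp3, and TGACGTCA in Rpl18 and Dusp1. Vldlr, Fabp3 and Rpl18 belong to gene lists used below, and Dusp1 was chosen after its values were seen.

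Vldlr promoter, chr19:27216770-27217019, plus strand: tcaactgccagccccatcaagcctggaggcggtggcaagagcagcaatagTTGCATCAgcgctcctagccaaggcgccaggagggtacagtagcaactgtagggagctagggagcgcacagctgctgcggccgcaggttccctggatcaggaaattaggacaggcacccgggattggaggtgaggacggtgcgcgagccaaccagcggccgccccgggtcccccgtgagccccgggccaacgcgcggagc
Fabp3 promoter, chr4:130308488-130308737, plus strand: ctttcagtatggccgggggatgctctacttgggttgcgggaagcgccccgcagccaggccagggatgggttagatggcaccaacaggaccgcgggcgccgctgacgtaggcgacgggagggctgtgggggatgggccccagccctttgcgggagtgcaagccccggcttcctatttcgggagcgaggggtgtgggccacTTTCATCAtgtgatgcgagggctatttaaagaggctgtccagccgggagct
Rpl18 promoter, chr7:45717821-45718070, plus strand: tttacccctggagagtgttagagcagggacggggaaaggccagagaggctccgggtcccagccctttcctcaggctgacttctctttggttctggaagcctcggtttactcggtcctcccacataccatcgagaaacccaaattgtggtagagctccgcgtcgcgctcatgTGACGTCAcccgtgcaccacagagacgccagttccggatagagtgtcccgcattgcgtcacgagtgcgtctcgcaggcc
Dusp1 promoter, chr17:26508473-26508722, minus strand: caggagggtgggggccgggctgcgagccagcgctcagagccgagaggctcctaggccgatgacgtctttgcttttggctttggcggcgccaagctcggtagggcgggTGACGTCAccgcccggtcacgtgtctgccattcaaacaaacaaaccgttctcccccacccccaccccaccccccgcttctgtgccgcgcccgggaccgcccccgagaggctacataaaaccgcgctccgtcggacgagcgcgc

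Vldlr encodes the very low density lipoprotein receptor, and the peak on its promoter had folds of 22.0 in replicate 1 and 19.9 in replicate 2 (21.0 ± 1.45, SD, n = 2). Fabp3, the heart fatty acid binding protein, had a weaker promoter peak, at 9.50 and 8.42 (8.96 ± 0.763). At Rpl18, a ribosomal protein gene, the values were 14.5 and 19.5 (17.0 ± 3.54). Dusp1, a phosphatase that switches off MAP kinases, had 21.0 and 19.5 (20.3 ± 1.06). The promoter peak of Fabp3 was the lowest of the 4 in both replicates.

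Few of the promoter windows under member peaks held these motifs, 7 for TGATGNAA and 21 for TGACGTCA. Over promoter windows of 300 bases, from 250 before to 50 after the start, TGATGNAA on either strand was present in 3.83% of all 31365 windows, in 2.47% of the 6788 windows under other eligible peaks and in 1.05% of the 667 windows under member peaks. TGACGTCA, the cyclic AMP response element, was present in 1.83% of all windows, in 4.02% under other eligible peaks and in 3.15% under member peaks. The AP-1 letters TGANTCA, which cannot begin at the same base of a strand as either ATF word, had shares of 7.85%, 4.68% and 5.70% in the same order. Windows under no eligible peak had 4.29% for TGATGNAA and 1.17% for TGACGTCA, so the member share was above theirs only for TGACGTCA. For both ATF words the windows under member peaks had the lower share of the pair of peak classes.

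For the AP-1 word and for words of cardiac factors, the windows under member peaks had the higher share of that pair. AGATAA, the GATA word, was held by 11.2% of all windows, 6.95% under other eligible peaks, 10.3% under member peaks and 12.4% under no eligible peak. GGAATG, the TEAD word, was held by 14.6% of all windows, 11.9% under other eligible peaks and 16.2% under member peaks. In the same order the MEF2 motif had 3.1%, 2.08% and 3.75%, and the CArG box, the word of serum response factor, 1.58%, 1.09% and 2.55%. Median GC content was 60% under member peaks, 61.3% under other eligible peaks and 53% over all windows, and its part in these shares was not tested. Only promoter windows could be searched, most member peaks lay away from gene ends, and a match describes letters and not a bound site.

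The chains covered 24.8 Mb in all. They held 6 to 31 peaks with a median of 7, and 126 chains held 10 or more. Their spans ran from 8.42 to 134 kb (median 33.2 kb), and neighbouring summits within a chain were a median of 4.25 kb apart. Peaks covered a median of 13.5% of the span, from 4.82% to 93.9%, so that a typical chain was a row of separate peaks and not a continuous domain. The strongest peak held 24.5% of a chain's summed fold at the median and never more than 50.8%. Just outside the threshold, 407 chains of 5 peaks had a median span of 21.3 kb and a median peak fold of 14.5, and just inside it 243 chains of 6 peaks had 25.8 kb and 14.2.

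Replicate 1 placed 7848 of its own peaks in the spans (10.2% of its peaks on these chromosomes) and replicate 2 placed 8245 (9.47%), with 6 to 51 and 6 to 63 per chain. The rule asked for peaks in both lists, so these counts are no evidence of replication. Chains built from the list of 1 replicate alone were far more numerous, at 2576 for replicate 1 and 3144 for replicate 2. Each set overlapped 688 of the 689 chains, as the rule largely fixes, through 664 of replicate 1's own chains (25.8%) and 657 of replicate 2's (20.9%). The same peak was the strongest in both replicates in 521 chains (75.6%). Over 689 chains the median member fold had a Pearson correlation between replicates of 0.845 and a Spearman correlation of 0.767. This is a description across regions measured in the same 2 libraries. The name of the series-wide list refers to IDR, a measure of reproducibility between replicates, and members also had to overlap both replicate lists. Likeness of the replicate folds, here and below, may thus be partly built in.

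**Figure D1:**
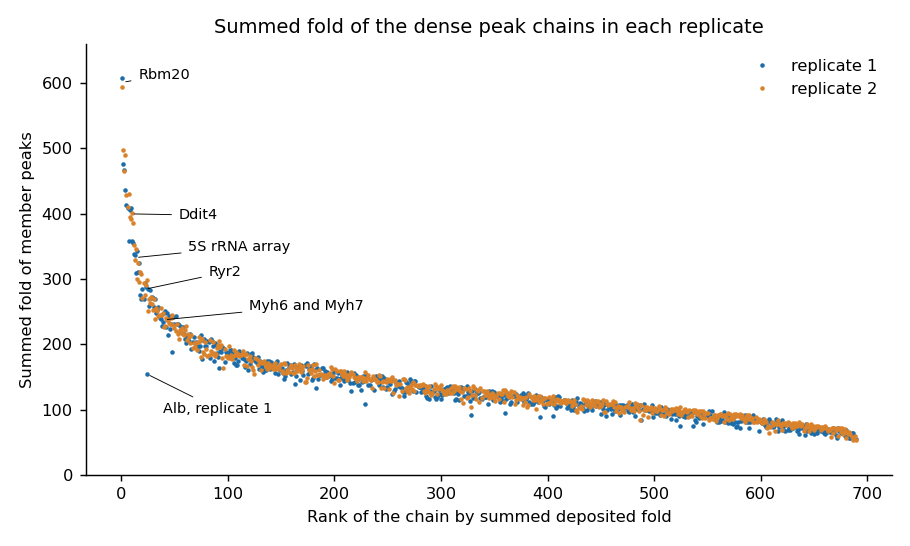
Summed fold of the member peaks (y axis) of each of the 689 chains against its rank by the summed deposited fold (x axis), with 1 point per replicate. Rbm20 leads in both replicates at 608 and 595, while the replicate 1 value of the Alb chain, 155, lies far below the neighbouring points.

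The deposited fold of the series-wide list equalled the higher of both replicate folds, to within 0.01, for 99.998% of eligible peaks. Replicate folds were themselves read through peaks shared with that list, so equality with 1 of them is largely built in. Because the deposited fold follows the higher replicate, values below are given per replicate. Member peaks had slightly higher median folds than other eligible peaks and were wider. The median fold in replicate 1 was 13.0 for members and 12.0 for others, and in replicate 2 it was 13.3 and 12.4. The mean difference was 0.943 ± 0.0803 (SD, n = 2). Folds move in fixed steps whose size is not the same in both replicates. The SD of the difference reflects these steps and does not measure how closely the replicates match. This difference did not hold up when chains were rebuilt from all peaks of 1 list: it was 0 from replicate 1 alone and 0.443 from replicate 2 alone. Those lists also hold peaks that were not eligible, so the sets of peaks compared were unlike. Median width was 529 bp for members and 434 bp for others. Deposited folds of 30 or more were reached by 8.7% of all eligible peaks, by 12.4% of member peaks and by 8.10% of the others, and the same order held within replicate 1 (10.4% and 6.61%) and replicate 2 (10.9% and 6.86%).

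Most of the difference in median fold lay between peaks that stood alone and peaks with any neighbour. Single peaks, 14799 in all, had median folds of 11.5 and 12.0 in replicates 1 and 2. In units of 2 to 3 peaks the mean of both replicate medians was 12.7 ± 0.250, in units of 4 to 5 peaks it was 12.9 ± 0.564, and in chains of 6 to 9 and of 10 or more peaks the medians were 13.0 and 13.3. Chains of 6 to 9 peaks and chains of 10 or more had the same medians in both replicates. The share of peaks with a deposited fold of 30 or more rose at each step instead. It was 6.32% for single peaks, 8.99% in units of 2 to 3 and 10.7% in units of 4 to 5. In chains of 6 to 9 peaks it was 11.8%, and in chains of 10 or more 13.8%.

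Member peaks lay inside genes more often than other peaks and at gene ends less often. Of member peaks, 10.7% were no farther than 1 kb from the start or end of a coding gene, 61.4% were inside a gene model farther from its ends and 27.9% lay outside genes. Of other eligible peaks, 17.5% were at gene ends, 45.2% inside and 37.3% outside. The share at gene ends was 19.7% for single peaks and 10.2% in chains of 10 or more, and the share inside genes was 40.0% and 64.9%. The strongest peak of each chain had nearly the same makeup as all members: 10.2% at gene ends, 59.5% inside genes and 30.3% outside. The gene table gives spans without exons, so exonic and intronic peaks were not told apart.

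**Figure D2:**
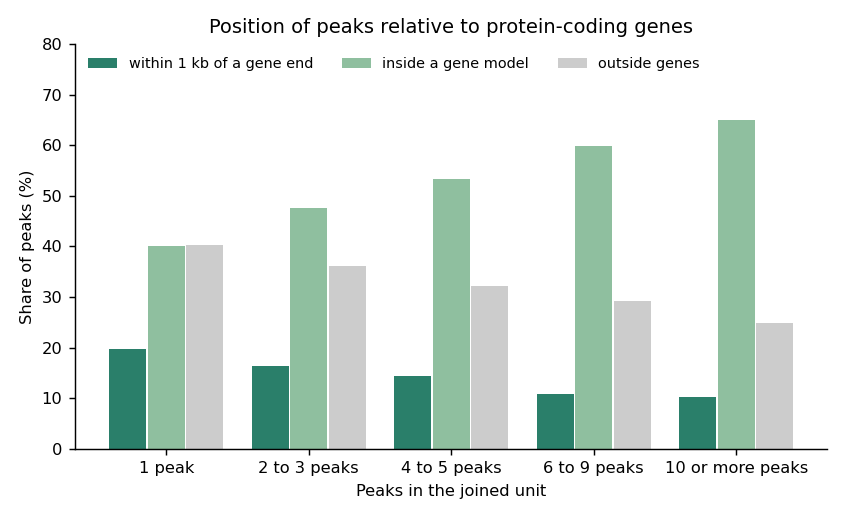
Share of eligible peaks (y axis, %) within 1 kb of a protein-coding gene end, farther inside a gene model, or outside genes, by the number of peaks in the joined unit (x axis). The share inside genes is larger at each step, from 40.0% for single peaks to 64.9% for units of 10 or more, and the share at gene ends is smaller at each step.

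A chain was assigned the protein-coding genes that overlapped its span, or the nearest gene where none did. By this assignment 606 chains overlapped a gene, 239 of them lay wholly inside a single gene, and 83 had only a nearest gene at 0.231 to 359 kb (median 32.5 kb). The genes of chains numbered 953, which is 4.61% of the 20661 protein-coding genes on these chromosomes, and 879 of them (4.25%) overlapped a span. At least 1 eligible peak lay in or within 10 kb of 62.3% of all protein-coding genes, and 7.32% of the genes with such a peak were genes of chains. Counting gene models of any kind, 3.23% overlapped a span. Gene length moved with the assignment: 3.81% of genes under 10 kb and 10.1% of genes of 100 kb or more were at chains, with a median length of 27.3 kb for genes of chains and 17.5 kb for all.

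Cardiac transcription factor genes were at chains in 15 of 30 cases (50%), against the 4.61% of all protein-coding genes. Nkx2-5, the homeodomain factor of the heart field, had a chain of 11 peaks over 49.1 kb at chr17:26844189-26893254. Its strongest peak had folds of 56.5 in replicate 1 and 56.7 in replicate 2 (56.6 ± 0.166, n = 2). Gata4, a zinc finger factor of cardiomyocytes, also had 11 peaks, over 43.3 kb, with a strongest fold of 41.5 and 45.7 (43.6 ± 2.94). Meis1, a homeobox factor linked to withdrawal of cardiomyocytes from the cell cycle, had 11 peaks, with a highest fold of 28.5 in replicate 1 and, at another peak, 27.9 in replicate 2. Ppargc1a, the coactivator of mitochondrial biogenesis, had 10 peaks with a strongest fold of 39.5 and 43.0. Of these 4 genes Meis1 had the lowest highest fold in both replicates. Tbx20, Mef2d, Hand2, Irx4, Tbx2, Myocd, Tead1, Zfpm2, Ppara, Klf15 and Gata5 made up the rest of the 15, with 6 to 9 peaks in their longest chain. Klf15 and Gata5 were nearest genes only, at 4.41 and 49.6 kb. Of the 30 genes 27 had an eligible peak within 10 kb. The largest joined unit in or within 10 kb of Esrra and of Esrrb held 2 peaks, and that of Tbx5 and of Mef2a held 5, just under the threshold.

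Sarcomere and Z-disc genes were at chains in 16 of 30 cases (53.3%). Cardiac myosin heavy chains are encoded by the neighbours Myh6 and Myh7, which shared a chain of 14 peaks over 77.7 kb at chr14:54937928-55015617 together with Cmtm5 and Ngdn. Its strongest peak, within 1 kb of a gene end, had folds of 59.5 in replicate 1 and 45.7 in replicate 2 (52.6 ± 9.79). A peak outside the gene models followed at 52.0 and 45.2 (48.6 ± 4.80), while 8 of the 14 peaks stayed under 12 in both replicates. The chain thus rested on 2 strong peaks among weak ones. The peaks nearest miR-208a-3p and miR-208b-3p were 1.75 and 3.85 kb away, with mean folds of 16.4 ± 0.596 and 10.5 ± 0.764.

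Lmod2, the leiomodin that lengthens thin filaments, and Myom1, the M-band protein myomesin, each had 13 peaks. Lmod2 shared its chain with Asb15 and Wasl and had its strongest peak in replicate 1 at 59.0 (48.3 in replicate 2) and its strongest in replicate 2 at 55.4 (55.0 in replicate 1). Myom1 had a strongest fold of 44.0 and 42.6 (43.3 ± 1.02). Csrp3, the muscle LIM protein of the Z-disc, had 10 peaks and 49.5 and 47.0 (48.2 ± 1.78). Ventricular myosin light chain Myl2 had a short chain of 7 peaks in 17.7 kb with one of the strongest peaks, 64.0 and 60.7 (62.4 ± 2.32). Cardiac troponin T gene Tnnt2 was much alike, with 7 peaks in 17.7 kb and 62.0 and 60.3 (61.1 ± 1.22). Short chains of few peaks could therefore hold peaks as strong as the long ones. Actn2 and Mybpc3, which had no chain, had a largest unit of 5 peaks each. The atrial light chain gene Myl7 had a largest unit of 3 peaks, and Ttn, the giant spring protein titin, 2.

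Calcium handling and ion channel genes were at chains in 11 of 30 cases (36.7%). Ryr2, the calcium release channel of the sarcoplasmic reticulum, had 14 peaks over 74.7 kb at chr13:12059882-12134615, with a strongest fold of 68.5 in replicate 1 and 59.8 in replicate 2 (64.2 ± 6.13). Atp2a2, the calcium pump that refills that store, had 10 peaks and 60.0 and 55.0 (57.5 ± 3.56). The L-type calcium channel gene Cacna1c carried 2 chains of 10 and 8 peaks. Popdc2, a cyclic AMP binding protein of the cardiac membrane, had 10 peaks with a highest fold of 61.5 in replicate 1 and, at another peak, 55.9 in replicate 2. Pln, the inhibitor of the calcium pump, shared a chain of only 6 peaks with Cep85l. Its median fold was 39.3 in replicate 1 and 41.9 in replicate 2 and was the highest median of all 689 chains in both. The strongest Pln peak reached 68.0 and 61.2 (64.6 ± 4.83). Cacna2d1 had no chain, with a largest unit of 3 peaks.

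**Figure D3:**
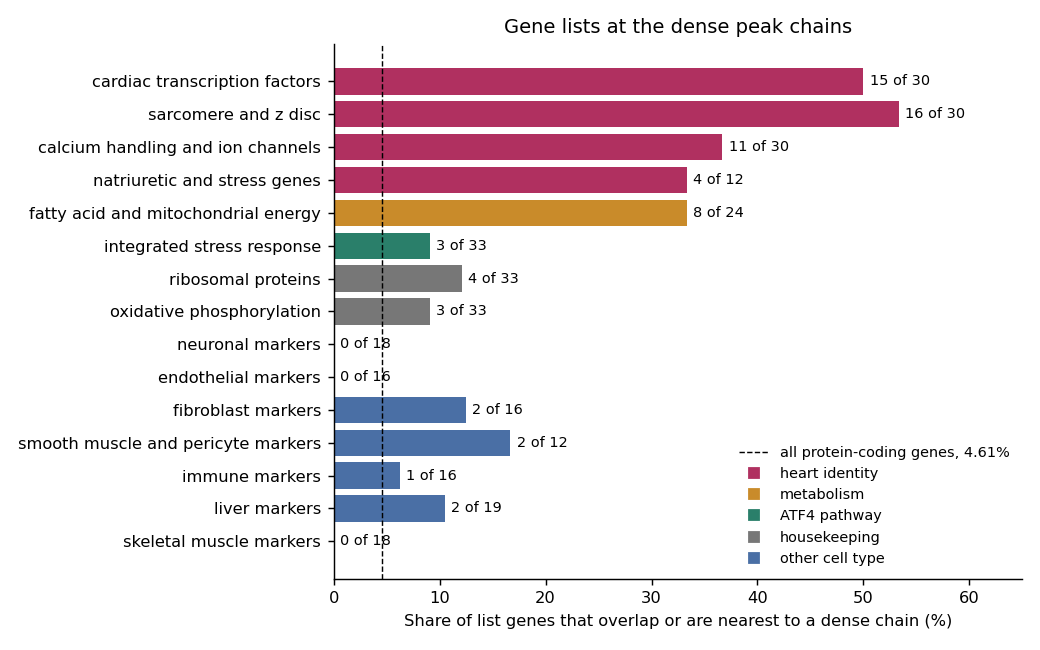
Share of the genes of each list (x axis, %) that overlapped a chain or were its nearest gene, with the count beside each bar and the share of all protein-coding genes, 4.61%, as a dashed line. The cardiac transcription factor and sarcomere lists reach 50% and 53.3%, and 3 lists of other cell types have no gene at a chain.

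Natriuretic and stress genes were at chains in 4 of 12 cases (33.3%). Nppa and Nppb, which encode the natriuretic peptides, shared 8 peaks over 47.2 kb, and Fhl2, a LIM domain protein of heart muscle, carried chains of 13 and 8 peaks. The shorter Fhl2 chain was the stronger, with a summed fold of 251 in replicate 1 and 227 in replicate 2, beside 154 in both for the longer one. Bag3, a co-chaperone of the Z-disc, had 7 peaks. Acta1 and Ankrd1 had none, with no peak in the window for Acta1 and a largest unit of 2 for Ankrd1.

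Together, 46 of the 102 genes of these 4 heart lists were at chains (45.1%). By overlap alone they were 43, and 96 of the 102 had an eligible peak within 10 kb. The largest joined unit in or near a gene held a median of 5 peaks over the 102 genes and 1 over all protein-coding genes. Median gene length was 30.5 kb for the heart lists and 17.5 kb for all, and its part in the count was not tested. All lists were chosen with earlier results of these peaks known.

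Genes of the fatty acid and mitochondrial energy list were at chains in 8 of 24 cases (33.3%). By overlap alone they were 7, since Vegfa was only the nearest gene of a chain 105 kb away. Hadha and Hadhb shared a single chain of 6 peaks. Lpl, the lipase that frees fatty acids from circulating lipoproteins, had 11 peaks over 59.0 kb with a strongest fold of 51.5 and 47.9 (49.7 ± 2.57). Idh2, the mitochondrial isocitrate dehydrogenase, and Pnpla2, the main triglyceride lipase of adipose and heart tissue, had 10 peaks each. Cd36, the fatty acid transporter, had 8 peaks within 14.3 kb. Acaa2 and Acadl had no chain.

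Genes of the ATF4 pathway itself all had peaks nearby, as did most genes of the housekeeping lists, and a few were at chains. All 33 genes of the integrated stress response list had an eligible peak within 10 kb, and 3 of 33 (9.09%) were genes of chains, beside 4.61% of all protein-coding genes and 7.32% of those with such a peak. An eligible peak within 10 kb was also present for 32 of 33 ribosomal protein and 31 of 33 oxidative phosphorylation genes. For all protein-coding genes that share was 62.3%. The largest unit near a gene of the stress response list held a median of 3 peaks. That of Atf4 itself held 3. The 3 genes at chains were Ddit4, Vldlr and Slc38a2, an amino acid transporter whose chain of 7 peaks lay 70.1 kb away. Ribosomal protein genes were at chains in 4 of 33 cases (12.1%) and oxidative phosphorylation genes in 3 of 33 (9.09%). The stress response count was thus no higher than those of these housekeeping lists.

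Ddit4 had the chain with the most peaks in that list. It encodes REDD1, a stress-induced brake on the growth kinase mTORC1, and it shared a chain of 18 peaks over 60.3 kb with Anapc16 and Ascc1 at chr10:59942948-60003198. The summed fold was 408 in replicate 1 and 391 in replicate 2 (400 ± 11.8). Peaks within 1 kb of gene ends had folds of 16.0 and 16.8 and of 26.5 and 19.1 at one end of the chain, and 8.50 and 7.98 at the other. The 2 strongest lay outside gene models, at 47.0 and 46.1 (46.6 ± 0.639) and at 44.5 and 46.1 (45.3 ± 1.13). Another peak, inside a gene model, reached 40.5 and 40.3 (40.4 ± 0.117). The strong peaks of this chain were therefore away from gene ends, and their replicate values were nearly equal.

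Markers of other cell types were at chains in 7 of 115 cases (6.09%), a share near the 4.61% of all protein-coding genes. Of 18 neuronal, 16 endothelial and 18 skeletal muscle genes, 0 were at chains. This depends on the assignment: the neuronal gene Slc17a7 had a chain of 6 peaks within 10 kb that was assigned elsewhere. The same held for Kcnip2 of the heart lists. Fibroblast genes gave 2 of 16, Col3a1 and Gsn. Smooth muscle and pericyte genes gave 2 of 12 (16.7%): Abcc9, a potassium channel subunit that cardiomyocytes also express, with 10 peaks, and Smtn with 8. The immune list gave 1 of 16 (6.25%), Fcgr3, and the liver list 2 of 19 (10.5%), Alb and Ahsg. An eligible peak within 10 kb was present for 65 of the 115 genes. These list counts are descriptions, and differences between lists were not tested.

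The chain with the most summed fold lay in Rbm20, a splicing regulator of titin and other cardiac transcripts. It held 28 peaks over 134 kb at chr19:53697349-53831408, the longest span of all chains, and lay wholly inside the gene model. Its summed fold was 608 in replicate 1 and 595 in replicate 2 (601 ± 8.96). Strong peaks stood in groups. A pair near the start of the chain had 60.0 and 55.0, and 62.5 and 62.1. Others farther along had 54.5 and 54.1, 42.5 and 42.6, and 42.0 and 39.0. Between them most peaks were near the median, 15.3 in replicate 1 and 15.1 in replicate 2.

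Other long chains lay at genes of the cytoskeleton and of transcription. Mical2, an actin-oxidising enzyme, had 24 peaks over 116 kb and a summed fold of 437 and 490 (464 ± 37.6). Tns1, which encodes the focal adhesion protein tensin, had 20 peaks over 90.4 kb with 358 and 401 (379 ± 30.9). Both had the higher sum in replicate 2. Irf2bp2, a transcriptional corepressor, had 23 peaks over 84.9 kb with 406 and 395 (400 ± 7.48). Only its peak of 13.5 and 12.0 was at a gene end, and the others lay outside gene models. Arid5b, a DNA-binding partner of a histone demethylase, had 19 peaks over 118 kb. The chromatin remodeller gene Chd2 had 18 peaks, none of which exceeded 28.4 in any replicate. Zbtb16, a zinc finger repressor, had a chain of 15 peaks with 409 and 410 beside a second chain of 8.

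Some genes carried several chains. At least 2 chains belonged to 59 genes and 3 or more to 13 genes. Msi2, an RNA-binding protein gene of 379 kb, led with 5 chains and 35 peaks. Gse1, of 353 kb, had 4 chains with 26 peaks, and Tns1 had 3 chains with 42 peaks. Cpeb4, a regulator of messenger RNA translation, had 3 chains although the gene measures 65.5 kb. The other 9 genes with 3 chains measured 147 to 775 kb.

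**Figure D4:**
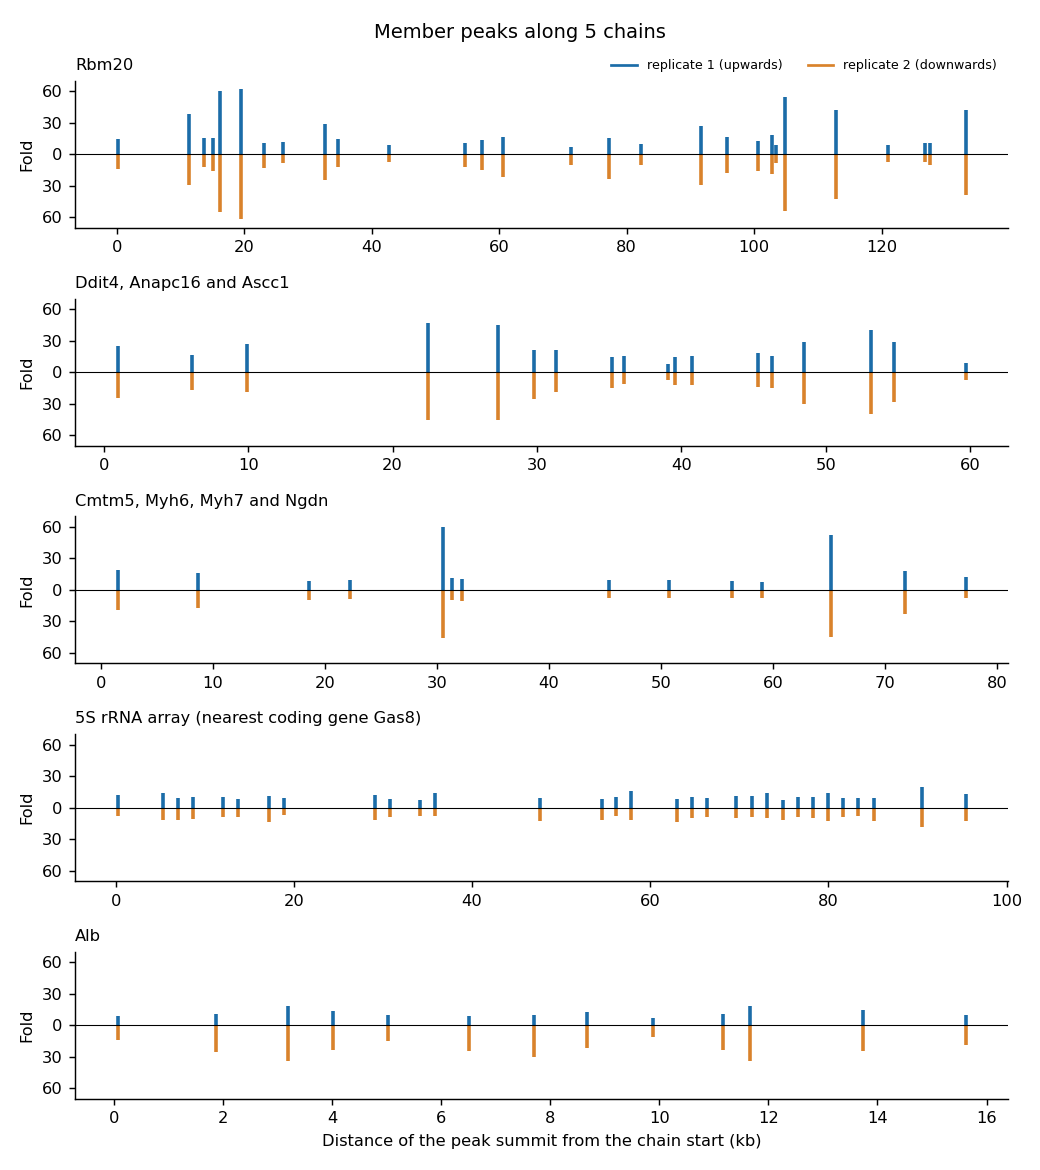
Fold of each member peak (y axis, replicate 1 upwards and replicate 2 downwards) against the distance of its summit from the start of the chain (x axis, kb) in 5 chains. Rbm20, Ddit4 and Myh6 with Myh7 have a few peaks over 40 among many weaker ones, the 5S array has 31 peaks of at most 20.0, and all 13 Alb peaks are higher in replicate 2.

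The chain with the most peaks lay on ribosomal RNA genes. It held 31 peaks over 96.2 kb at chr8:123538647-123634811, where its nearest coding gene, Gas8, was 1.99 kb away. The span contains 48 annotated 5S ribosomal RNA genes, which RNA polymerase III transcribes, and 27 of the 31 peaks lay on one. The 5S genes start a median of 1698 bp apart, the summits were a median of 1720 bp apart, and the median distance from a summit to the middle of the nearest 5S gene was 23 bp. These peaks were weak and even: the median fold was 10 in replicate 1 and 9.75 in replicate 2 (9.88 ± 0.176), and the highest 20.0 and 18.6. The copies are near identical, so reads from one can be placed on another and the peak at a single copy is uncertain. Of 61 rRNA genes on these chromosomes 49 (80.3%) lay in a chain.

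Transfer RNA genes, also transcribed by RNA polymerase III, were in chains in 79 of 391 cases (20.2%), beside 4.25% of protein-coding genes by the same overlap. They lay in 14 chains, and 66 of the 79 were under a member peak. Peaks on tRNA genes were not confined to the chains, since 170 of the 391 were under an eligible peak. Of member peaks 40 (0.717%) lay on a tRNA gene, and of other eligible peaks 73 (0.213%). The chain at Fcgr3, the only immune list gene, spans 15 tRNA genes, 13 of them under a peak, and its median fold was 9.50 in replicate 1 and 14.6 in replicate 2. Histone genes were at chains in 28 of 70 cases, in 3 chains, of which some also hold tRNA genes. Both kinds of gene come in similar copies, with the same uncertainty of placement.

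A pair of neighbouring chains on chromosome 6 had the largest shares of their spans under peaks. One, at the predicted genes Gm40369 to Gm40363, had 17 peaks in 36.4 kb with 93.9% of the span under peaks, and a summed fold of 476 and 497 (486 ± 14.8). It contains the 4.5S RNA gene Rn4.5s. The next, at Gm40363, had 15 peaks over 70.7% of its span, with 414 and 429 (421 ± 10.7) and contains the Y RNA genes Rny1 and Rny3. A chain of 18 peaks over 58.9 kb on chromosome 4 spans 15 genes, the interferon gene Ifnz and 14 predicted genes. Its summed fold was 358 in replicate 1 and 430 in replicate 2 (394 ± 51.2). Most of its peaks lay within 1 kb of gene ends, with summits a median of 2920 bp apart. Whether the peaks of these chains on chromosomes 4 and 6 lie on similar copies, with uncertain placement of reads, was not tested. In all, 17 chains lay over rRNA, tRNA or Y RNA genes, and without them the heart lists kept a count of 46 genes and the other cell type lists had 6.

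MicroRNA genes were in chains in 34 of 1136 cases (2.99%), near the 3.23% of gene models of any kind. Besides those shown above, Mir1a-1 and Mir133a-2, the muscle microRNA pair, lay in a chain of 6 peaks at chr2:180385109-180400548, whose nearest coding gene was Gata5. No peak of this chain exceeded 17.5 in replicate 1 or 15.1 in replicate 2. Mir143 and Mir145a, known from smooth muscle, lay in a chain of 8 peaks near Il17b. The chain near Zswim4 contains Mir23a, Mir27a and Mir24-2 and was weak, with a median fold of 8.50 and 8.42.

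Replicates gave unlike values at few chains, which the selection of peaks found in both lists may partly build in. The median fold was higher in replicate 1 in 287 chains and in replicate 2 in 402. It was more than 1.5 times higher in replicate 1 in 3 chains and more than 1.5 times higher in replicate 2 in 8 chains. The widest gap was at Alb, the gene of the main plasma protein made by liver. Its 13 peaks span 15.7 kb at chr5:90460903-90476605, and that chain covers 99.8% of the gene model. All 13 were higher in replicate 2, with folds from 7.50 to 18.5 in replicate 1 and from 10.6 to 34.1 in replicate 2. The summed fold was 155 in replicate 1 and 299 in replicate 2 (227 ± 102), 1.93 times as high.

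The other liver list gene at a chain was Ahsg. This gene, which encodes the plasma protein fetuin-A, had 7 peaks in a chain with Dnajb11. The peaks at or in Ahsg had folds of 14.0 and 27.5, 8.50 and 19.5, and 15.0 and 23.5 in replicates 1 and 2, while the 4 other peaks of the chain differed by less than 2. Of the 19 liver list genes, 12 had a peak of replicate 1 and 14 a peak of replicate 2 within 10 kb. Whether liver chromatin had a part in these chains was not tested.

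The chain at Nppa and Nppb was among the 8 with higher values in replicate 2. Its median fold was 9.25 in replicate 1 and 14.6 in replicate 2, and its summed fold was 109 and 157 (133 ± 34.2). The strongest peak, within 1 kb of a gene end, had 43.5 and 53.6 (48.6 ± 7.16), and a peak outside the genes had 11.0 and 26.6 (18.8 ± 11.0). The tRNA chains at Fcgr3 and at Abt1 with Btn1a1 were also among the 8. Ank, Ppil1 with BC004004, and Mrpl45 were the 3 chains with the higher median in replicate 1, at 17.0 and 10.6, 16.0 and 8.87, and 17.8 and 11.7.

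**Figure D5:**
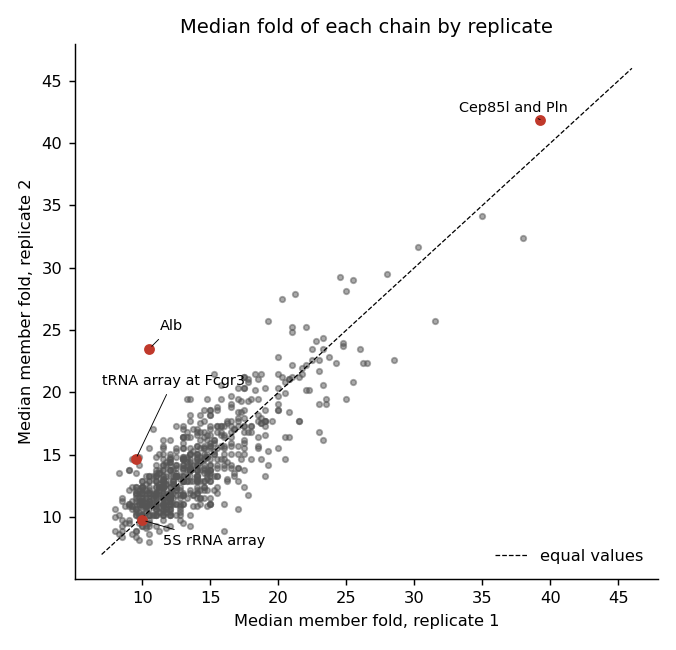
Median fold of the member peaks of each chain in replicate 1 (x axis) and replicate 2 (y axis), with a dashed line at equal values and 4 chains marked in red. Most of the 689 chains lie near the line, and Alb (10.5 and 23.5) lies farthest above it.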

How the data were processed

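Peak lists of 2 ATF4 pull-down samples and of the series were used, and 2 input samples are not analysed here. Per the submitters' processing notes, which give no roles or versions, the tools were Bowtie2, MACS2 and deepTools and the build was mm10. The authors deposited a fold enrichment (a ratio) and a summit per series-wide peak, and for each replicate peak a −log10 value whose kind (p or q) is not given in the sources used here. The fold of a replicate peak was read from its −log10 value through the 17420 and 21053 peaks with the same position and summit in both kinds of list (0 and 6 peaks off the relation). The 4 and 5 lowest values were continued downwards in the fold steps of 0.500 and 0.443, and 2 and 9 values were placed between neighbours. Fold is over a constant background, not scaled between samples, and depth is unknown.

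Overlap meant at least 1 bp. Genes were 20661 protein-coding spans of a RefSeq table of GRCm38.p6; 340 of 343 entries in 15 gene lists lay on chromosomes 1 to 19, 1 by an older symbol. Chaining was checked on simulated peaks. Named genes were those of the 10 chains with most peaks, the 5 longest and the 5 with the highest summed fold, up to 4 members per list at chains and the first 2 alphabetically without, and Atf4; other genes were named after their values were seen. Some genes that the rule names are not reported here. Members, lists and this rule were chosen with earlier results of these data known. No p-values were computed. The planned search of peak sequence was replaced by promoter windows, since no genome was used here. Alternatives varied the gap, peak number, overlap, fold, gene ends, gene assignment and replicate. Python 3.11.15, NumPy 2.4.6, pandas 2.3.3 and Matplotlib 3.10.9 were used.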

Additional observations from a re-analysis of the deposited data

How the results depend on the processing

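With 2 samples and no read counts the data give no interval for a single fold, and chain numbers rest on where weak peaks pass the authors' threshold. No paired analysis was possible because the input samples are not analysed here and no comparison between groups was tested. Of the alternative values 66 moved, by over 1.5 times for a count or by over 1 SD between the replicates for another value. That SD is small for spans, folds and shares at gene ends, and for the fold difference it reflects the fold steps. The other 18 moved by less. Although 0 reversed direction, counts, spans and shares have no sign to reverse. Only the fold difference has a sign, and it was 0 without replicate 2. Values below are given in the order chains, share of eligible peaks in chains, median span, median deposited fold of members minus others, genes of chains, heart list genes of 102, other cell type genes of 115, and share of member peaks at gene ends.

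A gap of 5 kb gave 145 chains, 2.65%, 17.2 kb, 1.26, 184 genes, 14, 2 and 11.3%. A gap of 25 kb gave 1459 chains, 34.7%, 63.0 kb, 0.684, 3009 genes, 69, 19 and 13.8%. At least 5 peaks gave 1096 chains, 19.1%, 27.6 kb, 1.13, 1425 genes, 58, 12 and 11.5%, and at least 8 peaks 306 chains, 7.87%, 42.4 kb, 1.26, 467 genes, 26, 4 and 10.2%. The 50% of peaks with the highest fold gave 123 chains, 4.48%, 32.3 kb, 2.44, 169 genes, 12, 2 and 10.2%. Leaving out peaks within 2.5 kb of a gene end gave 439 chains, 11.3%, 32.9 kb, 1.00, 397 genes, 24, 3 and, by construction, 0%. Fewer or more chains follow from the construction of these settings, and the cause of the other shifts was not tested.

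Asking 50% of a peak to be covered in both replicates moved the fold difference to 1.26 and the share at gene ends to 11.0%. Leaving out 1 replicate removes the demand for both. The lowest and highest values were then 2576 and 3144 chains, 33.0% and 36.9%, 31.9 kb in both cases, 0 and 0.443 in fold, 3358 and 4082 genes, 80 heart list genes in both cases, 22 and 26 other cell type genes, and 11.8% at gene ends in both cases. The fold difference was 0 without replicate 2. Without chains over rRNA, tRNA or Y RNA genes, chosen after seeing the data, the span was 33.1 kb and the share at gene ends 10.3%. Taking the gene end nearest the middle of a chain gave 630 genes. Ranking joined regions by summed fold and cutting at the tangent point, as for super-enhancers, gave 1282 regions, of which 640 were chains (49.9% of the regions and 92.9% of the chains).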
